A study of Mus musculus with 22 samples.

Results

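The genes described here encode 8 inhibitory receptors of T cells and natural killer (NK) cells (Pdcd1, Ctla4, Lag3, Havcr2, Btla, Cd160, Cd101 and Cd200r1) and the nuclear factors Tox and Tox2. They were chosen by gene name, and all 10 were found among the 37620 entries of a table of read counts per gene. The table holds 22 RNA sequencing libraries of lymphocytes sorted out of mammary tumours, with 2 libraries for each of 11 populations. All groups came from female C57BL/6 mice aged 20 to 24 weeks that carry PyMT, a viral oncogene that gives rise to mammary tumours in these mice, and the tumours were pooled before sorting, so that a library does not stand for 1 animal. The first set of 5 populations is named by surface markers: TCRb+CD8a+NK1.1+, TCRb+CD8a-NK1.1+, TCR-NK1.1+, TCRb+CD8a+PD1+ and TCRb+CD8a+PD1-NK1.1- cells. The second set of 6 holds TCRab+ILTC1 and TCRgd+ILTC1 cells (type 1 innate-like T cells with an αβ or a γδ receptor), ILC1l cells (type 1-like innate lymphoid cells), TCRb+CD8a+NK1.1- cells, TCRgd+NK1.1- cells and cNK cells (conventional NK cells). NK1.1 is a receptor found on NK cells and related lymphocytes of this strain.

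Inhibitory receptors reach the surface of lymphocytes after activation and damp signalling when they meet ligands on tumour, stromal or myeloid cells. PD1, the product of Pdcd1, and CTLA-4 belong to the CD28 family: PD1 recruits phosphatases to the T-cell receptor and CD28, and CTLA-4 competes with CD28 for CD80 and CD86. T cells that meet antigen for a long time in tumours or chronic infection carry several of these receptors together, a state known as exhaustion, which needs the nuclear factor TOX. TOX is also needed for the development of NK cells and other innate lymphoid cells, so its RNA is not a mark of exhaustion alone.

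Total counts per library ran from 8696335 to 20602715. Levels are given as CPM (counts per 1000000 counts of the library, scaled by the trimmed mean of M-values, TMM, within a set). CPM are not divided by gene length, so they compare libraries for 1 gene and not genes with each other. The floor used here, 3 counts in a library, stood for 0.151 to 0.322 CPM. Klrb1c, which encodes NK1.1, was at 888 to 2483 CPM in the 14 libraries of the populations labelled NK1.1+, ILTC1, ILC1l or cNK, against 0.801 to 87.6 CPM in the 8 libraries labelled NK1.1- or PD1+. The T-cell receptor subunit gene Cd3e was at 88.4 and 477 CPM in the ILC1l libraries (replicates 1 and 2), at 208 and 418 CPM in the TCR-NK1.1+ libraries and at 0.622 and 6.13 CPM in the cNK libraries. RNA of other cell types was present in some libraries: the summed level of 12 myeloid genes was 7900 and 22990 CPM in TCRgd+NK1.1- libraries and 429.5 to 2112 CPM in the other 20. The summed level of 7 epithelial genes, without Cdh1, which most of the other libraries also held, was 3068 to 5762 CPM in TCR-NK1.1+, 252.7 to 3622 CPM in TCRb+CD8a-NK1.1+, 1296 to 2414 CPM in TCRb+CD8a+NK1.1- and 1809 to 3320 CPM in TCRgd+NK1.1- libraries, and 19.25 to 96.86 CPM in the other 14. The sum of 5 B cell genes stayed between 2.243 and 45.07 CPM in all 22 libraries. In sorted pools, fewer cells of a type and less RNA per cell cannot be told apart.

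The populations fell into different orders for different members. Ctla4 was at 1.33 to 13.8 CPM (median 6.90 CPM) in the 14 libraries labelled NK1.1+, ILTC1, ILC1l or cNK, against 27.7 to 182 CPM (median 48.4 CPM) in the 8 libraries labelled NK1.1- or PD1+, with no overlap. Pdcd1 came close to the same split, at 0.977 to 93.5 CPM (median 42.0 CPM) against 92.3 to 1887 CPM (median 554 CPM), and Tox was at 139 to 364 CPM against 151 to 1079 CPM. Havcr2 was at 0 to 7.70 CPM (median 0.74 CPM) in the first of these groups, against 6.91 to 190 CPM (median 82.4 CPM), and Tox2 at 0 to 1.54 CPM (median 0 CPM), against 0.149 to 38.6 CPM (median 13.6 CPM). Cd160 had the opposite order of medians, 511 CPM in the 14 libraries against 253 CPM in the 8, with ranges that overlapped. Lag3, Cd101 and Cd200r1 overlapped widely between these groups of libraries. Their medians were 65.1 CPM in the 14 libraries against 93.0 CPM in the 8 for Lag3, 80.9 against 71.0 CPM for Cd101 and 160.5 against 109.9 CPM for Cd200r1. These ranges are descriptions across 2 sets that were scaled separately, and no test was made of them.

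Within the first set, 9 of the 10 members, all but Cd160, varied among the 5 populations beyond the spread between libraries (edgeR's quasi-likelihood test, with p adjusted by Benjamini and Hochberg's method and under 0.05), where 6.1% of the 15727 genes tested did so. Within the second set, 9 of the 10, all but Btla, varied among the 6 populations, where 4.76% of the 16828 genes tested did so. All 10 members passed the filter on low counts in both sets. Below, "passed" means an adjusted p under 0.05 in that test, adjusted over all genes tested, and differences are log2 fold changes ± SE.

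**Figure D1:**
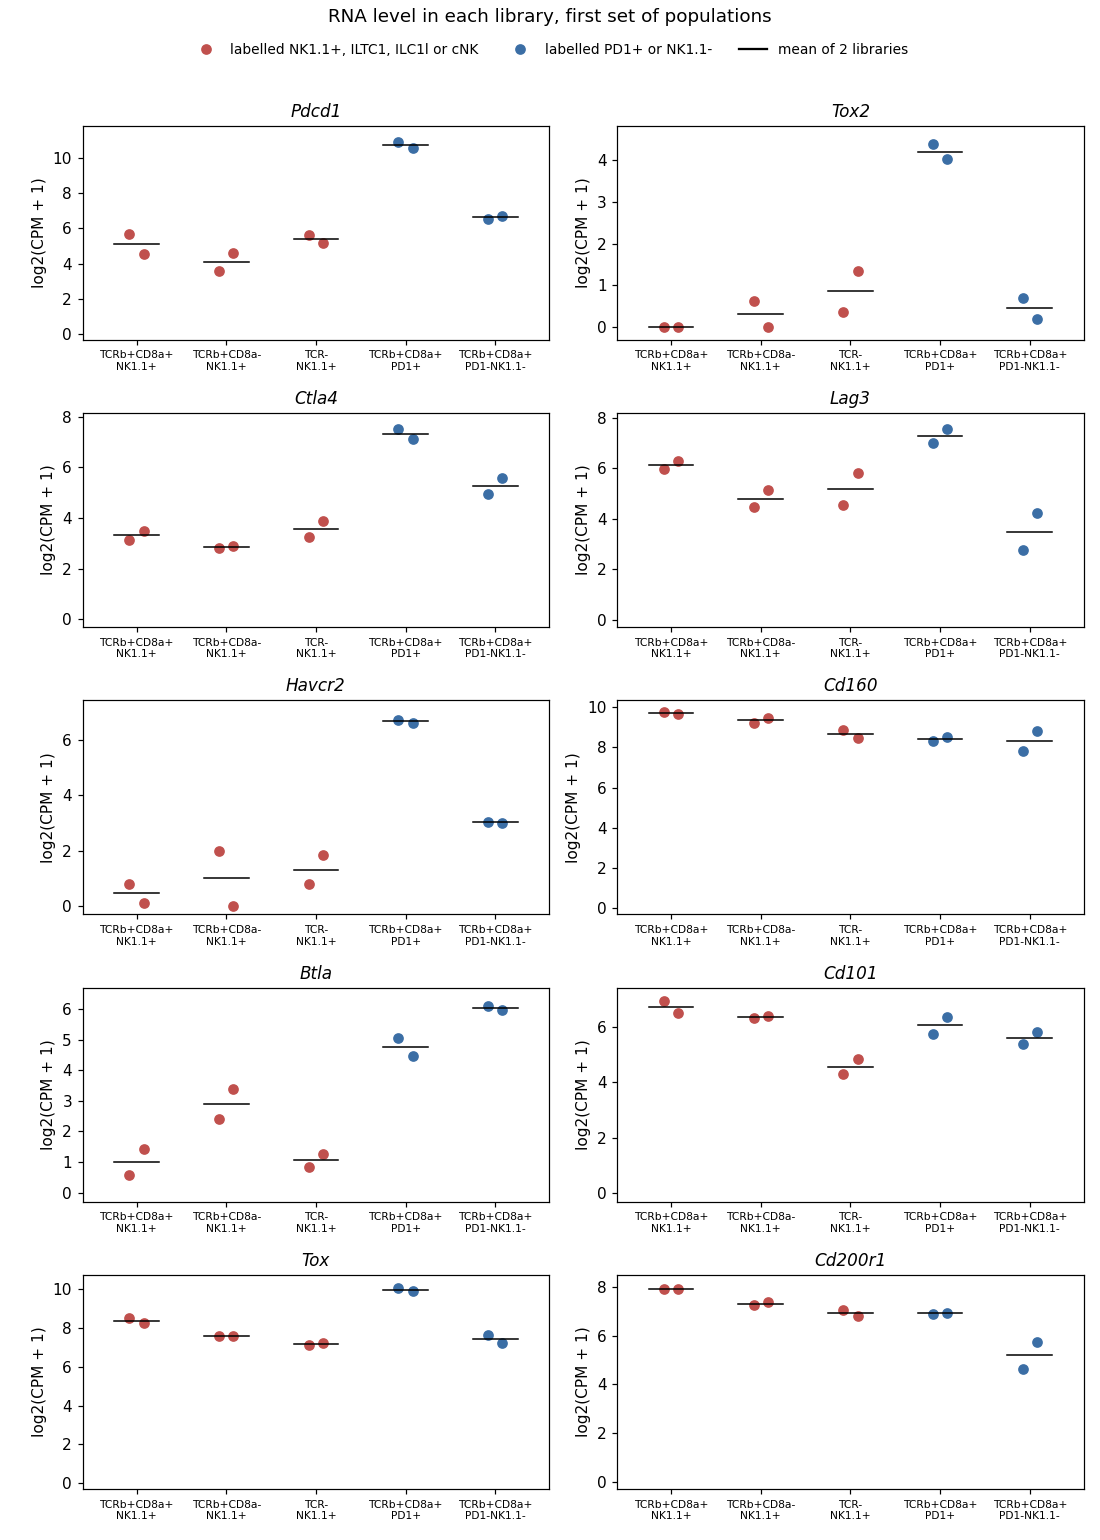
Level of each member, as log2(CPM + 1) on the vertical axis, in the 10 libraries of the first set; each point is 1 library and the line is the mean of the 2 libraries of a population. Pdcd1, Ctla4, Lag3, Havcr2, Tox and Tox2 are highest in the TCRb+CD8a+PD1+ libraries, Btla in the TCRb+CD8a+PD1-NK1.1- libraries, and Cd160, Cd101 and Cd200r1 in the TCRb+CD8a+NK1.1+ libraries.

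The first comparison set TCRb+CD8a+NK1.1+ cells against TCRb+CD8a+PD1+ cells. Of the 10 members 6 passed, all lower in TCRb+CD8a+NK1.1+ cells (Pdcd1, Ctla4, Havcr2, Btla, Tox and Tox2), where 2.11% of all genes tested passed in either direction. The median difference of the 10 members was −2.88, against −0.002 over all genes tested. Cd160, Cd101 and Cd200r1 were not among those that passed and had positive differences. Pdcd1 RNA is the transcript of the protein on which one of these populations was sorted, so its values check the labels. Pdcd1 is still counted among the 6 and in the median.

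Pdcd1 was at 50.4 and 22.4 CPM in TCRb+CD8a+NK1.1+ libraries, against 1887 and 1517 CPM in TCRb+CD8a+PD1+ libraries and 92.3 and 105 CPM in TCRb+CD8a+PD1-NK1.1- libraries. Both NK1.1+ libraries thus lay below the population sorted as PD1-negative, although the label NK1.1+ names no gate on PD1. Pdcd1 was lower by −5.55 ± 0.52 in NK1.1+ than in PD1+ cells (edgeR adjusted p = 0.000777), and the difference of −1.44 ± 0.44 from PD1-NK1.1- cells did not pass (adjusted p = 0.197).

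Ctla4 was at 7.67 and 10.4 CPM in TCRb+CD8a+NK1.1+ libraries, against 182 and 138 CPM in TCRb+CD8a+PD1+ libraries and 30.2 and 47.1 CPM in TCRb+CD8a+PD1-NK1.1- libraries. The 3 populations did not overlap, with NK1.1+ cells lowest and PD1+ cells highest. The NK1.1+ cells differed by −4.15 ± 0.41 from PD1+ cells (edgeR adjusted p = 0.000885), a 17.7-fold lower level. They also differed by −2.10 ± 0.38 from PD1-NK1.1- cells (adjusted p = 0.0249).

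Havcr2 encodes TIM-3, a receptor with an immunoglobulin and a mucin domain that marks strongly exhausted T cells and is also made by myeloid cells. It was at 0.75 and 0.0836 CPM in TCRb+CD8a+NK1.1+ libraries, 10 counts in all, against 105 and 96.3 CPM in TCRb+CD8a+PD1+ libraries and 7.28 and 6.91 CPM in TCRb+CD8a+PD1-NK1.1- libraries. The NK1.1+ level was near the floor of 3 counts in 1 of its libraries. The difference from PD1+ cells was −7.88 ± 1.45 (edgeR adjusted p = 0.0208), and that from PD1-NK1.1- cells was −4.06 ± 1.32 (adjusted p = 0.243).

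Btla, which encodes a receptor for the herpesvirus entry mediator, had another order. It was at 0.5 and 1.67 CPM in TCRb+CD8a+NK1.1+ libraries, against 31.9 and 20.8 CPM in TCRb+CD8a+PD1+ libraries and 67.5 and 61.3 CPM in TCRb+CD8a+PD1-NK1.1- libraries. Here the PD1-negative cells were the highest. The NK1.1+ cells were 24.1-fold lower than PD1+ cells (−4.59 ± 0.66, edgeR adjusted p = 0.00621) and 58.8-fold lower than PD1-NK1.1- cells (−5.88 ± 0.69, adjusted p = 0.00373).

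Tox was at 364 and 304 CPM in TCRb+CD8a+NK1.1+ libraries, against 1079 and 952 CPM in TCRb+CD8a+PD1+ libraries and 200 and 151 CPM in TCRb+CD8a+PD1-NK1.1- libraries. The 3 populations did not overlap, and the NK1.1+ cells lay between the other two. The difference from PD1+ cells was −1.60 ± 0.25 (edgeR adjusted p = 0.00863), and that from PD1-NK1.1- cells, 0.93 ± 0.24, did not pass (adjusted p = 0.118).

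Tox2, a close relative of Tox with the same kind of DNA-binding box, had no count in either TCRb+CD8a+NK1.1+ library, against 19.7 and 15.2 CPM in TCRb+CD8a+PD1+ libraries and 0.626 and 0.149 CPM in TCRb+CD8a+PD1-NK1.1- libraries. With 3 counts set over the NK1.1+ libraries as a floor, Tox2 was at least 139-fold lower than in PD1+ cells (edgeR adjusted p = 0.0454). Tox and Tox2 thus differed in the size of their change from PD1+ cells. Tox RNA was 3.04-fold lower in TCRb+CD8a+NK1.1+ cells but still present, and Tox2 RNA was not detected there.

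Lag3 encodes a receptor for class II molecules of the major histocompatibility complex. It was at 61.8 and 78.0 CPM in TCRb+CD8a+NK1.1+ libraries, against 130 and 189 CPM in TCRb+CD8a+PD1+ libraries and 5.79 and 17.7 CPM in TCRb+CD8a+PD1-NK1.1- libraries. The NK1.1+ libraries lay between the others without overlap, but neither difference passed, at −1.19 ± 0.56 from PD1+ cells (edgeR adjusted p = 0.492) and 2.57 ± 0.59 from PD1-NK1.1- cells (adjusted p = 0.0674).

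Cd160 encodes a lipid-anchored receptor of NK cells and CD8 T cells that shares the ligand of BTLA. It was at 858 and 811 CPM in TCRb+CD8a+NK1.1+ libraries, against 319 and 363 CPM in TCRb+CD8a+PD1+ libraries and 227 and 453 CPM in TCRb+CD8a+PD1-NK1.1- libraries. Both NK1.1+ libraries lay above all 4 others, by 1.29 ± 0.33 over PD1+ cells (edgeR adjusted p = 0.101) and 1.30 ± 0.33 over PD1-NK1.1- cells (adjusted p = 0.106), which did not pass.

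Cd200r1 encodes the receptor for CD200 and is also made by myeloid cells. It was at 242 and 238 CPM in TCRb+CD8a+NK1.1+ libraries, against 117 and 122 CPM in TCRb+CD8a+PD1+ libraries and 24.1 and 52.7 CPM in TCRb+CD8a+PD1-NK1.1- libraries. Its difference from PD1-NK1.1- cells was 2.64 ± 0.36 (edgeR adjusted p = 0.00811) and that from PD1+ cells was 1.00 ± 0.34 (adjusted p = 0.258). Cd200r1 has close relatives in the genome, and reads shared with them could move its values.

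Cd101, which encodes an immunoglobulin family protein of activated and tissue T cells, was at 120 and 88.8 CPM in TCRb+CD8a+NK1.1+ libraries, against 52.9 and 80.5 CPM in TCRb+CD8a+PD1+ libraries and 40.6 and 55.0 CPM in TCRb+CD8a+PD1-NK1.1- libraries. Both NK1.1+ libraries lay above the other 4. Neither the difference from PD1+ cells, 0.65 ± 0.34 (edgeR adjusted p = 0.558), nor that from PD1-NK1.1- cells, 1.13 ± 0.34 (adjusted p = 0.191), passed.

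Against TCRb+CD8a+PD1-NK1.1- cells, 3 of the 10 members passed in TCRb+CD8a+NK1.1+ cells, Ctla4 and Btla lower and Cd200r1 higher, where 1.78% of all genes tested passed. Against the same PD1-NK1.1- cells, TCRb+CD8a+PD1+ cells had 3 members that passed, all higher, where 0.451% of all genes tested passed. These were Pdcd1 at 4.11 ± 0.48 (edgeR adjusted p = 0.0112), Lag3 at 3.76 ± 0.61 (adjusted p = 0.0318) and Tox at 2.53 ± 0.26 (adjusted p = 0.00622). Both populations were sorted on PD1, so the Pdcd1 difference follows from the sort and checks the labels. Pdcd1 is still counted among the 3 and in the median below. Ctla4 differed by 2.05 ± 0.37 between the PD1+ and the PD1-NK1.1- cells and lay just outside the threshold (adjusted p = 0.052). Tox2 (5.47 ± 1.55, adjusted p = 0.321) and Havcr2 (3.83 ± 1.14, adjusted p = 0.331) did not pass either. The median difference of the members was −0.25 in NK1.1+ and 2.29 in PD1+ cells, against 0 over all genes tested in both comparisons. Both comparisons share the PD1-NK1.1- libraries. Against PD1-NK1.1- cells, DESeq2 called 8 members and 778 genes in NK1.1+ cells, and 6 members and 371 genes in PD1+ cells. The genes called by edgeR's test were 280 and 71.

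With 2 libraries per population, several of these calls needed all 4 libraries compared. Against PD1+ cells, Pdcd1 and Ctla4 passed whichever 1 library of the set was left out. Havcr2, Tox and Tox2 lost their calls when any 1 of the 4 libraries compared was left out (edgeR adjusted p = 0.0625 to 0.19, 0.0532 to 0.146 and 0.125 to 0.268), and Btla lost it without TCRb+CD8a+NK1.1+ replicate 1 (0.0553). Against PD1-NK1.1- cells, Ctla4 lost its call when any 1 of the 4 libraries was left out (0.0642 to 0.265), and Cd200r1 without TCRb+CD8a+NK1.1+ replicate 1 (0.054). Between PD1+ and PD1-NK1.1- cells, Tox passed whichever library was left out. Pdcd1 lost its call without either PD1-NK1.1- library (0.0585 to 0.0756), and Lag3 without either library of PD1+ or of NK1.1+ cells or without PD1-NK1.1- replicate 1 (0.0528 to 0.169).

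**Figure D2:**
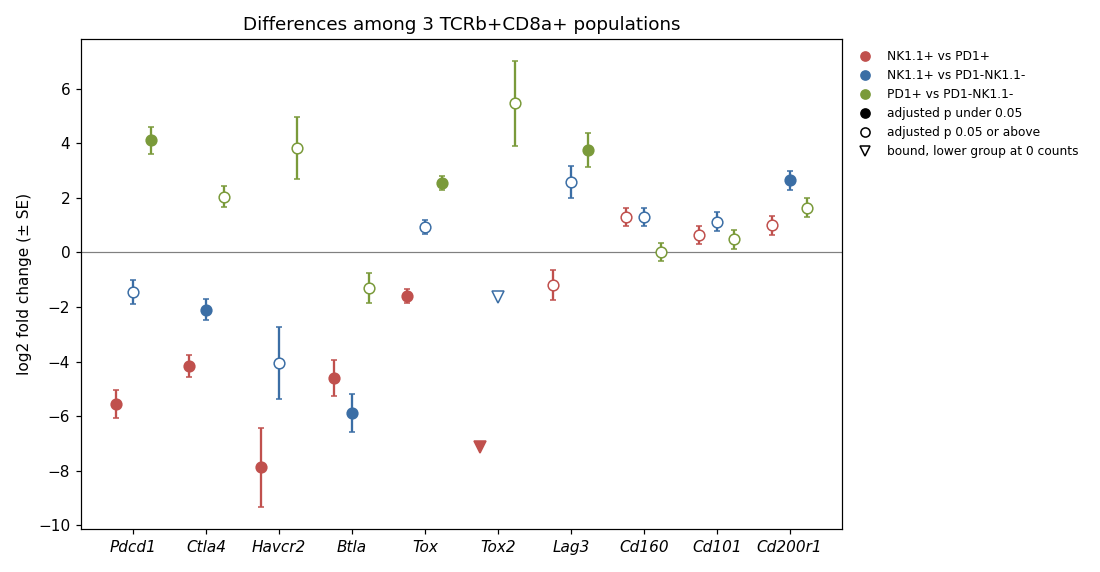
Log2 fold change ± SE of each member (vertical axis) in 3 comparisons of TCRb+CD8a+ populations, with the population named first in the legend over the other; filled points passed an adjusted p of 0.05, and triangles are bounds where the lower population had no count. Pdcd1, Ctla4, Havcr2, Btla, Tox and Tox2 lie below 0 and are filled for NK1.1+ against PD1+ cells, while Btla lies below 0 in all 3 comparisons.

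The promoters of Pdcd1, Ctla4, Havcr2 and Tox2 are shown because these 4 members were highest, without overlap, in TCRb+CD8a+PD1+ cells of the first set and in both NK1.1- populations of the second. The share of all genes with this order was not counted, so the order served only to choose the promoters shown. They were searched for the letters bound by NFAT and AP-1, factors that carry T-cell receptor signals to DNA. RefSeq promoters (GRCm38.p6, from 250 bases before to 50 after the gene's start) were found for 7 of the 10 members, and not for Lag3, Cd200r1 or Tox. Tox2 had 5 promoter entries and Cd160 had 2, and only the first entry of a gene was read. Capitals mark the NFAT core GGAAA, which reads as TTTCC when it lies on the other strand, and the AP-1 site TGANTCA. Pdcd1 is on the minus strand at chr1:94052504-94052803, Ctla4 on the plus strand at chr1:60908775-60909074, Havcr2 on the plus strand at chr11:46454681-46454980 and Tox2 on the plus strand at chr2:163202877-163203176.
Pdcd1: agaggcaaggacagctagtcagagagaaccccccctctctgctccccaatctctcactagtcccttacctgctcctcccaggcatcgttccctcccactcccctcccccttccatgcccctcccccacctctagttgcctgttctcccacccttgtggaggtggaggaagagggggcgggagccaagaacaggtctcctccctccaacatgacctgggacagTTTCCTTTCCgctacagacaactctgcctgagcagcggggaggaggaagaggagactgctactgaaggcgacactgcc
Ctla4: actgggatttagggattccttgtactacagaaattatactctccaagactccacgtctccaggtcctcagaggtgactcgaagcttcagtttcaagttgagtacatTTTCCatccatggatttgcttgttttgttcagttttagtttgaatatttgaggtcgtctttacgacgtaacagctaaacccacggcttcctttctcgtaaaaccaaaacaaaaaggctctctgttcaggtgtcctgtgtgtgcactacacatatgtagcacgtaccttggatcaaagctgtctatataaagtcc
Havcr2: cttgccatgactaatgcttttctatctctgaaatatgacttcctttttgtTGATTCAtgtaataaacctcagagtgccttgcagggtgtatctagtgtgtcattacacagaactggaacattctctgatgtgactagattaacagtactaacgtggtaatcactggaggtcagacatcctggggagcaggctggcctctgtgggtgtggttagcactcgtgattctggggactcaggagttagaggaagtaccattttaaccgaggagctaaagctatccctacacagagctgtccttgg
Tox2: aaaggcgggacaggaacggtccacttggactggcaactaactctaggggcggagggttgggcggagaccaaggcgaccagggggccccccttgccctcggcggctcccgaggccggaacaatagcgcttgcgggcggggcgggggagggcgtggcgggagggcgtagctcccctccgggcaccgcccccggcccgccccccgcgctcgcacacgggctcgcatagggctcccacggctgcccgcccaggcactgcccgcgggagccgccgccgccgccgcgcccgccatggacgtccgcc
The Pdcd1 window holds the NFAT core at −28 and −23 from the start, one directly after the other, and the Ctla4 window holds it at −144. The Havcr2 window holds TGANTCA at −200, and the Tox2 window holds neither. Of the other windows read, that of Cd101 holds the NFAT core at −151 and those of Btla and Cd160 hold none of these letters. Searched on both strands, the NFAT core occurs in 61.3% of 27025 promoters of this length, TGANTCA in 7.93%, and AAAGGTCA, the site of NR4A factors, in 1.46% and in none of the 7 windows. No 2 of these motifs overlapped, and a match is a run of letters and not a measured site.

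Within the first set, TCRb+CD8a+NK1.1+ cells were also set against the other NK1.1+ populations. Against TCR-NK1.1+ cells 2 members passed, both higher in TCRb+CD8a+NK1.1+ cells, where 1.54% of all genes tested passed. Cd101 was at 120 and 88.8 CPM in TCRb+CD8a+NK1.1+ libraries, against 18.7 and 27.4 CPM in TCR-NK1.1+ libraries (2.18 ± 0.35, edgeR adjusted p = 0.0195). Tox was at 364 and 304 CPM against 139 and 151 CPM (1.20 ± 0.25, adjusted p = 0.0459). All 7 epithelial genes were higher in both TCR-NK1.1+ libraries than in the 14 libraries with low sums, and their part in these differences was not tested. Cd101 did not pass without either TCRb+CD8a+NK1.1+ library or without TCR-NK1.1+ replicate 1 (edgeR adjusted p = 0.095 to 0.17). Tox did not pass in 8 of the fits that left out 1 library (0.0535 to 0.362), namely without either library of TCRb+CD8a+NK1.1+, TCR-NK1.1+, TCRb+CD8a+PD1+ or TCRb+CD8a+PD1-NK1.1- cells, nor with RLE scaling (0.0555).

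Against TCRb+CD8a-NK1.1+ cells no member passed in edgeR's test, where 0.337% of all genes tested did. At an unadjusted p under 0.05 there were 4 (Pdcd1, Lag3, Btla and Tox), among 1469 genes. DESeq2 called Btla and Tox, among 577 genes. Btla was at 0.5 and 1.67 CPM in TCRb+CD8a+NK1.1+ libraries, against 4.28 and 9.43 CPM in TCRb+CD8a-NK1.1+ libraries (−2.65 ± 0.63, edgeR adjusted p = 0.126). Tox was at 364 and 304 CPM against 194 and 193 CPM (0.79 ± 0.24, adjusted p = 0.288). Among all 3 NK1.1+ populations of this set, Pdcd1 stayed at 11.1 to 50.4 CPM, Ctla4 at 6.15 to 13.8 CPM and Havcr2 at 0 to 3.01 CPM. These levels were near each other where they were low, and neighbours in order of Pdcd1 or Havcr2 overlapped.

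For the other members the order within the first set ran as follows. Cd160 was highest in TCRb+CD8a+NK1.1+ libraries, then at 587 and 712 CPM in TCRb+CD8a-NK1.1+ and 463 and 355 CPM in TCR-NK1.1+ libraries, the last of which overlapped with the PD1+ and PD1-NK1.1- libraries. Cd200r1 had the same order, with 151.5 and 165 CPM in TCRb+CD8a-NK1.1+ and 133 and 112 CPM in TCR-NK1.1+ libraries, where the last overlapped with PD1+ libraries, and PD1-NK1.1- libraries lay below all. Cd101 was at 78.5 and 83.3 CPM in TCRb+CD8a-NK1.1+ libraries, which overlapped with PD1+ libraries, and TCR-NK1.1+ libraries were the lowest. Lag3 was at 21.1 and 34.0 CPM in TCRb+CD8a-NK1.1+ libraries and at 22.7 and 55.3 CPM in TCR-NK1.1+ libraries, overlapping each other and lying between TCRb+CD8a+NK1.1+ and PD1-NK1.1- libraries. Btla was at 0.802 and 1.41 CPM in TCR-NK1.1+ libraries, within the spread of TCRb+CD8a+NK1.1+ libraries, and Tox2 was at 0.535 and 0 CPM in TCRb+CD8a-NK1.1+ and 0.292 and 1.54 CPM in TCR-NK1.1+ libraries, near the floor.

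**Figure D3:**
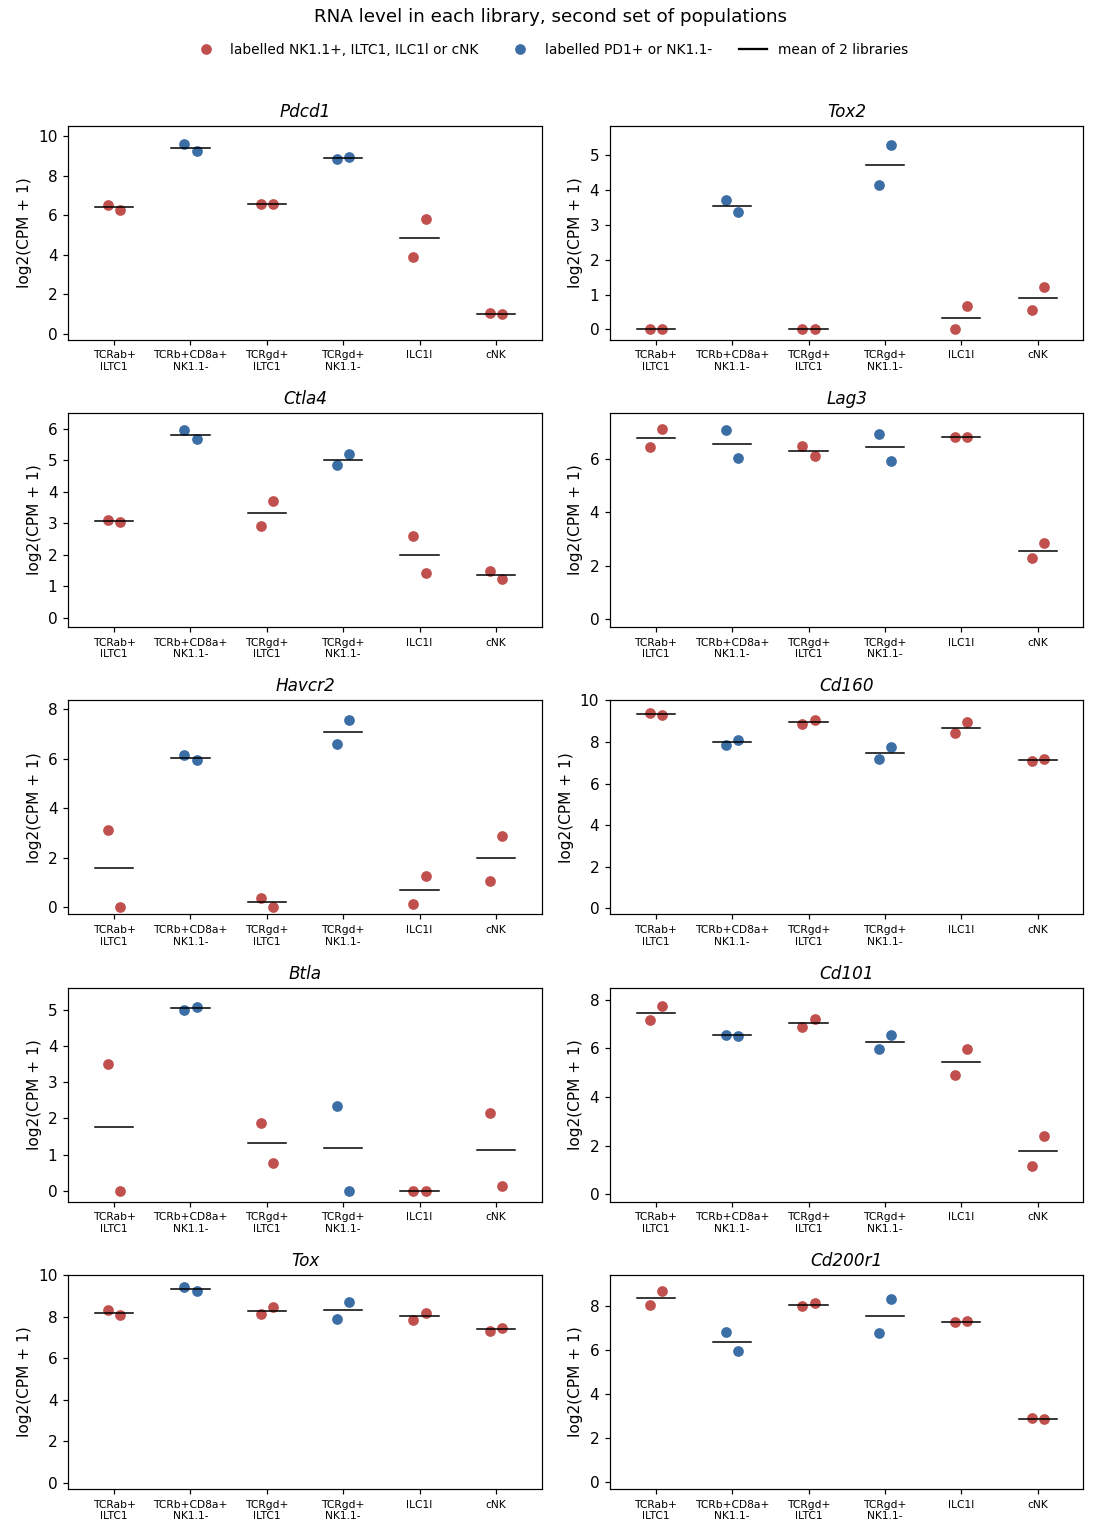
Level of each member, as log2(CPM + 1) on the vertical axis, in the 12 libraries of the second set; each point is 1 library and the line is the mean of the 2 libraries of a population. Pdcd1, Ctla4, Havcr2 and Tox2 are highest in the populations labelled NK1.1-, and Pdcd1, Lag3, Cd160, Cd101, Cd200r1 and Tox are lowest in the cNK libraries, without overlap.

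In the second set, each innate-like population has a conventional counterpart: TCRab+ILTC1 and TCRb+CD8a+NK1.1- cells, TCRgd+ILTC1 and TCRgd+NK1.1- cells, and ILC1l and cNK cells. In TCRab+ILTC1 against TCRb+CD8a+NK1.1- cells 1 member passed, Pdcd1, where 0.523% of all genes tested passed. In TCRgd+ILTC1 against TCRgd+NK1.1- cells 1 member passed, Cd160, where 1.59% did. In ILC1l against cNK cells 5 members passed, all higher in ILC1l cells (Pdcd1, Lag3, Cd160, Cd101 and Cd200r1), where 1.02% did. Of the 7 epithelial genes, 4 lay above the 14 libraries of low sum in both TCRb+CD8a+NK1.1- libraries and 5 in both TCRgd+NK1.1- libraries, and their part in these differences was not tested. Scaling by relative log expression in place of TMM moved the median over all genes by −0.132 in the γδ comparison, by −0.093 in the αβ comparison and by −0.004 in ILC1l against cNK cells. The median difference of the members was −1.88 in TCRab+ILTC1, −0.25 in TCRgd+ILTC1 and 1.34 in ILC1l cells, against −0.07, −0.13 and 0.03 over all genes tested.

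Pdcd1 was at 90.0 and 77.4 CPM in TCRab+ILTC1 libraries, against 777 and 610 CPM in TCRb+CD8a+NK1.1- libraries. In the γδ lineage it was at 93.2 and 93.5 CPM in TCRgd+ILTC1 libraries, against 458 and 498 CPM in TCRgd+NK1.1- libraries. In the lineage sorted without a T-cell receptor the order was turned round, with 13.9 and 55.4 CPM in ILC1l libraries against 1.09 and 0.977 CPM in cNK libraries. The differences were −3.05 ± 0.52 (edgeR adjusted p = 0.0427), −2.36 ± 0.51 (adjusted p = 0.0538, just outside the threshold) and 5.05 ± 0.61 (adjusted p = 0.00464).

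Ctla4 was at 7.54 and 7.25 CPM in TCRab+ILTC1 libraries, against 60.7 and 49.7 CPM in TCRb+CD8a+NK1.1- libraries. It was at 6.54 and 12.1 CPM in TCRgd+ILTC1 libraries, against 27.7 and 35.6 CPM in TCRgd+NK1.1- libraries, and at 4.96 and 1.66 CPM in ILC1l libraries, against 1.79 and 1.33 CPM in cNK libraries. Both ILTC1 populations lay below their counterparts without overlap, and ILC1l and cNK libraries overlapped. The summed level of 3 genes of CD4 and regulatory T cells, which make CTLA-4, was 15.13 to 230.2 CPM over all 22 libraries. This sum was lowest in TCRb+CD8a+PD1+ and highest in TCRgd+NK1.1- libraries, and the part of such cells in the Ctla4 levels was not tested. None of the 3 differences passed, at −2.90 ± 0.65 (edgeR adjusted p = 0.0902), −1.77 ± 0.62 (adjusted p = 0.183) and 1.08 ± 0.63 (adjusted p = 0.602).

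Havcr2 was at 7.70 and 0 CPM in TCRab+ILTC1 libraries, against 69.5 and 60.5 CPM in TCRb+CD8a+NK1.1- libraries (−4.05 ± 1.63, edgeR adjusted p = 0.314). It was at 0.301 and 0 CPM in TCRgd+ILTC1 libraries, 4 counts in all, against 95.2 and 190 CPM in TCRgd+NK1.1- libraries (−9.78 ± 2.23, adjusted p = 0.0655). ILC1l libraries held 0.0788 and 1.41 CPM, against 1.09 and 6.31 CPM in cNK libraries (adjusted p = 0.666). The TCRgd+NK1.1- libraries were the highest and also held most myeloid RNA: in both of them 10 of the 12 myeloid genes lay above all other 20 libraries and none of the 12 was at 0. The library with 190 CPM of Havcr2 was the one with a myeloid sum of 22990 CPM. The part of myeloid RNA in the Havcr2 level was not tested.

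Btla was at 10.4 and 0 CPM in TCRab+ILTC1 libraries, against 31.0 and 32.9 CPM in TCRb+CD8a+NK1.1- libraries. It was at 2.63 and 0.705 CPM in TCRgd+ILTC1 libraries, against 4.08 and 0 CPM in TCRgd+NK1.1- libraries, and had no count in ILC1l libraries, against 3.42 and 0.0889 CPM in cNK libraries. Replicate libraries differed as much as the populations outside TCRb+CD8a+NK1.1- cells, and no difference passed (edgeR adjusted p = 0.673, 0.983 and 0.534). TCRab+ILTC1 replicate 1 held both the 7.70 CPM of Havcr2 and the 10.4 CPM of Btla, and replicate 2 held no count of either.

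Tox was at 317 and 267 CPM in TCRab+ILTC1 libraries, against 689 and 604 CPM in TCRb+CD8a+NK1.1- libraries (−1.15 ± 0.30, edgeR adjusted p = 0.134). It was at 278 and 352 CPM in TCRgd+ILTC1 libraries, against 235 and 423 CPM in TCRgd+NK1.1- libraries (−0.06 ± 0.30, adjusted p = 0.966). It was at 230 and 290 CPM in ILC1l libraries, against 160 and 178 CPM in cNK libraries (0.62 ± 0.30, adjusted p = 0.521). No population lacked Tox, whose lowest library in the whole series, of TCR-NK1.1+ cells, held 139 CPM.

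Tox2 had no count in any of the 4 ILTC1 libraries. TCRb+CD8a+NK1.1- libraries held 12.03 and 9.45 CPM and TCRgd+NK1.1- libraries 16.8 and 38.6 CPM, so that Tox2 was at least 118-fold lower in TCRab+ILTC1 cells (edgeR adjusted p = 0.0979) and at least 241-fold lower in TCRgd+ILTC1 cells (adjusted p = 0.0538) than in their counterparts. Neither difference passed. ILC1l libraries held 0 and 0.582 CPM, against 0.467 and 1.33 CPM in cNK libraries.

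Lag3 was at 84.7 and 136 CPM in TCRab+ILTC1 libraries, against 134 and 64.2 CPM in TCRb+CD8a+NK1.1- libraries. It was at 87.7 and 68.5 CPM in TCRgd+ILTC1 libraries, against 122 and 60.1 CPM in TCRgd+NK1.1- libraries. These 4 populations overlapped, with differences of 0.16 ± 0.46 (edgeR adjusted p = 0.934) and −0.22 ± 0.46 (adjusted p = 0.881). ILC1l libraries held 110 and 111 CPM, against 3.81 and 6.22 CPM in cNK libraries (4.46 ± 0.54, adjusted p = 0.00459).

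Cd160 was the member with a positive difference of like size in all 3 lineages. It was at 678 and 630 CPM in TCRab+ILTC1 libraries, against 229 and 276 CPM in TCRb+CD8a+NK1.1- libraries (1.37 ± 0.27, edgeR adjusted p = 0.0649). It was at 470 and 528 CPM in TCRgd+ILTC1 libraries, against 144 and 215 CPM in TCRgd+NK1.1- libraries (1.47 ± 0.27, adjusted p = 0.0342), and at 347 and 494 CPM in ILC1l libraries, against 134 and 143 CPM in cNK libraries (1.60 ± 0.27, adjusted p = 0.0266). In each lineage both innate-like libraries lay above both conventional ones.

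Cd101 was at 144 and 216 CPM in TCRab+ILTC1 libraries, against 93.5 and 90.5 CPM in TCRb+CD8a+NK1.1- libraries (0.96 ± 0.53, edgeR adjusted p = 0.449). It was at 118 and 149 CPM in TCRgd+ILTC1 libraries, against 61.4 and 93.5 CPM in TCRgd+NK1.1- libraries (0.78 ± 0.53, adjusted p = 0.474). It was at 28.8 and 61.6 CPM in ILC1l libraries, against 1.24 and 4.35 CPM in cNK libraries (4.02 ± 0.61, adjusted p = 0.0135). The cNK libraries stood far below all other populations of the set.

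Cd200r1 was at 262 and 404 CPM in TCRab+ILTC1 libraries, against 112 and 61.0 CPM in TCRb+CD8a+NK1.1- libraries (1.95 ± 0.48, edgeR adjusted p = 0.118). It was at 251 and 283 CPM in TCRgd+ILTC1 libraries, against 108 and 313 CPM in TCRgd+NK1.1- libraries (0.34 ± 0.46, adjusted p = 0.781), and the 313 CPM stood in the library of highest myeloid sum. It was at 152 and 156 CPM in ILC1l libraries, against 6.61 and 6.22 CPM in cNK libraries, 24.0-fold higher (4.58 ± 0.54, adjusted p = 0.00424).

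T-cell RNA differed between the ILC1l libraries. Replicate 1 held 88.4 CPM of Cd3e and 52.9 CPM of Cd8a, and replicate 2 held 477 and 256 CPM, against 0.622 and 6.13 CPM of Cd3e and 0.156 and 2.58 CPM of Cd8a in the cNK libraries. Pdcd1 (13.9 and 55.4 CPM), Cd101 (28.8 and 61.6 CPM) and Cd160 (347 and 494 CPM) followed the same order of libraries, and the part of T-cell RNA in their levels was not tested. Lag3 (110 and 111 CPM) and Cd200r1 (152 and 156 CPM) had like levels in both ILC1l libraries.

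Among the 5 calls in ILC1l against cNK cells, all were lost without cNK replicate 1 (edgeR adjusted p = 0.0635 for Pdcd1 or Cd200r1 and 0.0687 for Lag3 among them). Pdcd1 was also lost without cNK replicate 2, Cd101 without ILC1l replicate 2 (0.0757 to 0.0905 over its losses), and Cd160 when any 1 of 6 libraries was left out, those of ILC1l, cNK and TCRgd+ILTC1 cells (0.0546 to 0.33). The Pdcd1 call in TCRab+ILTC1 cells was lost without TCRab+ILTC1 replicate 2 and without either library of TCRb+CD8a+NK1.1- or of cNK cells (0.0566 to 0.237). DESeq2 called 6 members and 1189 genes in that comparison, and 1700 genes in TCRgd+ILTC1 against TCRgd+NK1.1- cells. For TCRab+ILTC1 cells, 4 members passed in edgeR's test when both TCRgd+NK1.1- libraries were left out of the fit. The genes called in this comparison also moved between settings, from 83 to 1244, against 88 in the main fit. The Cd160 call in TCRgd+ILTC1 cells was lost without ILC1l replicate 2 or either library of TCRgd+ILTC1, cNK or TCRb+CD8a+NK1.1- cells (0.0532 to 0.251), and DESeq2 called 5 members there.

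**Figure D4:**
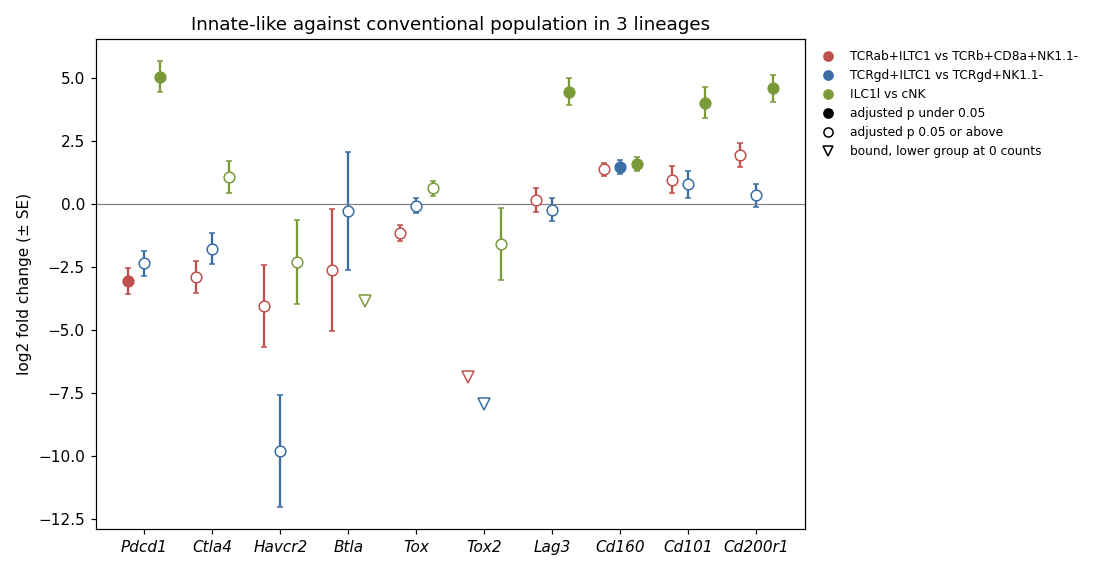
Log2 fold change ± SE of each member (vertical axis) in 3 lineages, innate-like over conventional population; filled points passed an adjusted p of 0.05, and triangles are bounds where the lower population had no count. Pdcd1 lies below 0 for both ILTC1 populations and above 0 for ILC1l cells, while Cd160 lies between 1.37 and 1.60 in all 3 lineages.

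The mean of the 3 innate-like minus conventional differences was tested as 1 contrast. Of the 10 members 6 passed, where 5.87% of all genes tested passed. Cd200r1 (2.29 ± 0.28, edgeR adjusted p = 0.00248), Cd101 (1.92 ± 0.32, adjusted p = 0.00859), Cd160 (1.48 ± 0.16, adjusted p = 0.00128) and Lag3 (1.47 ± 0.27, adjusted p = 0.0146) had positive means. For Lag3 this mean averages 4.46 in ILC1l cells with 0.16 and −0.22 in the ILTC1 populations, so that it does not describe all 3 lineages. The mean of Cd200r1 averages 4.58 in ILC1l cells with 1.95 in TCRab+ILTC1 and 0.34 in TCRgd+ILTC1 cells. That of Cd101 averages 4.02 with 0.96 and 0.78. Neither Cd200r1 nor Cd101 passed in either ILTC1 comparison alone. Havcr2 (−5.38 ± 1.06, adjusted p = 0.0182) and Tox2 (adjusted p = 0.00906, with 0 counts in 2 of the 3 innate-like populations) had negative means. Havcr2 and Tox2 did not pass without the γδ pair of populations (adjusted p = 0.195 and 0.0613), whose TCRgd+NK1.1- libraries hold the myeloid RNA given above, and Havcr2 did not without ILC1l replicate 1 or TCRgd+ILTC1 replicate 2 (0.0545 to 0.0707). The mean for Pdcd1 was −0.12 ± 0.31 (adjusted p = 0.958), an average over differences of opposite sign.

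Whether the lineages differed was tested directly as differences of differences. Between ILC1l against cNK and TCRab+ILTC1 against TCRb+CD8a+NK1.1-, 2 members passed, where 0.256% of all genes tested passed: Pdcd1 (8.10 ± 0.81, edgeR adjusted p = 0.00597) and Lag3 (4.31 ± 0.69, adjusted p = 0.0449). Between ILC1l against cNK and TCRgd+ILTC1 against TCRgd+NK1.1-, 3 members passed, where 1.02% did: Pdcd1 (7.41 ± 0.80, adjusted p = 0.00429), Lag3 (4.68 ± 0.69, adjusted p = 0.0178) and Cd200r1 (4.24 ± 0.69, adjusted p = 0.0274). Both tests share the ILC1l and cNK libraries, and the median over all genes tested was 0.19 and 0.33. Scaling by relative log expression moved the second of these medians by 0.128. Between the αβ and the γδ lineage no member passed in edgeR's test, where 0.0535% of all genes tested did. There 3 members and 1489 genes had an unadjusted p under 0.05, and DESeq2 called 348 genes and no member. For Cd160 the 3 differences of differences were 0.23 ± 0.38, 0.13 ± 0.38 and −0.10 ± 0.38. The Pdcd1 call against the αβ lineage was lost without cNK replicate 1 (0.0501), and that of Lag3 in 8 of the fits without 1 library (0.0616 to 0.211), those without either library of ILC1l, cNK or TCRgd+ILTC1 cells, TCRb+CD8a+NK1.1- replicate 1 or TCRab+ILTC1 replicate 2. Against the γδ lineage, Pdcd1 passed whichever library was left out, while Lag3 was lost without ILC1l or cNK replicate 1 or either TCRgd+ILTC1 library (0.0527 to 0.104), and Cd200r1 when any 1 library of those 3 populations was left out (0.0727 to 0.128).

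TCRab+ILTC1 cells were also set against ILC1l cells, both innate-like and with and without a T-cell receptor. No gene passed in edgeR's test (0% of all genes tested), with 1072 genes and 6 members at an unadjusted p under 0.05, and DESeq2 called 199 genes and 1 member, Cd101. Cd101 was at 144 and 216 CPM in TCRab+ILTC1 libraries, against 28.8 and 61.6 CPM in ILC1l libraries (1.99 ± 0.54, edgeR adjusted p = 0.637). Lag3 differed by −0.0026 ± 0.46 (adjusted p = 1) and Tox by 0.17 ± 0.30 (adjusted p = 0.932), with levels of 84.7 and 136 CPM against 110 and 111 CPM for Lag3.

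Across the 22 libraries, members fell into groups of like pattern, measured as Pearson's r of log2 CPM centred on the mean of each set. This is a description, since the 2 libraries of a population are not independent of each other. Havcr2 and Tox2 were the most alike pair of members (r = 0.916), followed by Pdcd1 and Ctla4 (r = 0.905) and by Cd101 and Cd200r1 (r = 0.855). In the second set Havcr2 and Tox2 were both highest in TCRgd+NK1.1- libraries, which held most myeloid RNA. The part of that RNA in their likeness was not tested. Lag3 was more like Cd200r1 (r = 0.802) and Cd101 (r = 0.736) than like Havcr2 (r = 0.124) or Btla (r = −0.055). Cd160 was unlike Tox2 (r = −0.667) and Havcr2 (r = −0.605), and r with Pdcd1 was −0.005. Tox was most like Pdcd1 (r = 0.762) and Ctla4 (r = 0.731).

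Among 8335 genes compared in the same way, the most like Pdcd1 after Ctla4 were the interferon-induced Ifit3 (r = 0.888) and Ifi27l2a (r = 0.881). Ctla4 was most like Gzmk (r = 0.91), a granzyme gene, then Pdcd1 and Ube2l6 (r = 0.902). Havcr2 was most like Cxcr5 (r = 0.897), a chemokine receptor gene, then Syt11 (r = 0.89) and Ms4a6d (r = 0.884), and Tox2, after Havcr2, like Syt11 (r = 0.85) and Ptafr (r = 0.848). Cd101 was most like Cd3e (r = 0.98), Tcrg-C3 (r = 0.976) and Cd3g (r = 0.967), all genes of T-cell receptor parts. Cd200r1 was most like its relative Cd200r2 (r = 0.938), then Abi3 (r = 0.938) and Nelfe (r = 0.92), and Lag3 like Glrx (r = 0.911), Tcrg-C4 (r = 0.888) and Osgin1 (r = 0.876). Cd160 was most like Smyd3 (r = 0.893), Dapk2 (r = 0.887) and Sult2b1 (r = 0.881), and Btla like Ifi214 (r = 0.889), Fam169b (r = 0.866) and Nsg2 (r = 0.858). Atxn1 (r = 0.835) and Cers4 (r = 0.818) were among the genes most like Tox.

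**Figure D5:**
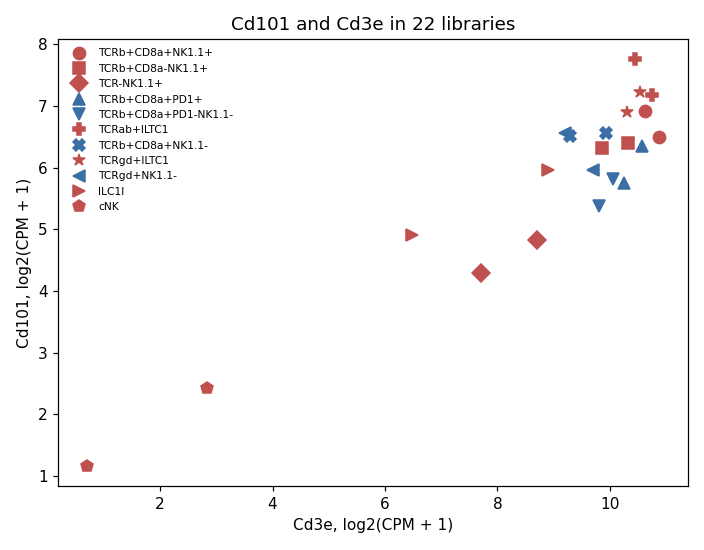
Level of Cd101 (vertical axis) against that of Cd3e (horizontal axis) in the 22 libraries, both as log2(CPM + 1), 1 point per library. The cNK libraries lie lowest on both axes, and the ILC1l and TCR-NK1.1+ libraries lie between them and the T-cell populations on the Cd3e axis, with r = 0.98 after centring on each set.

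The other genes of these pathways were read from lists of receptors, ligands, signalling proteins and factors. Of all genes tested, 2.11% passed in TCRb+CD8a+NK1.1+ against TCRb+CD8a+PD1+ cells. Against TCRb+CD8a+PD1-NK1.1- cells the share was 1.78% in NK1.1+ and 0.451% in PD1+ cells. It was 5.87% in the mean of the 3 lineages, and the counts from each list stand beside these shares. Of 9 further inhibitory receptor genes tested, 1 passed in TCRb+CD8a+NK1.1+ against TCRb+CD8a+PD1+ cells, Cd244a, which encodes the NK-cell receptor 2B4. It was at 886 and 989 CPM in NK1.1+ libraries, against 178 and 115 CPM in PD1+ libraries (2.68 ± 0.32, edgeR adjusted p = 0.00296). Against TCRb+CD8a+PD1-NK1.1- cells 4 passed: Cd244a (2.79 ± 0.33) and Tigit (2.19 ± 0.40), a receptor for nectin-like ligands, were higher and Cd5 (−2.22 ± 0.37) and Lair1 (−1.87 ± 0.38) lower. Tigit was at 476 and 306 CPM in NK1.1+ libraries, against 816 and 523 CPM in PD1+ libraries and 67.8 and 103 CPM in PD1-NK1.1- libraries. It also passed in PD1+ against PD1-NK1.1- cells (2.97 ± 0.41, adjusted p = 0.0193), so that Tigit, unlike Pdcd1, was above the PD1-NK1.1- level in both. In the mean of the 3 lineages 5 passed, with Cd244a (1.53 ± 0.20, adjusted p = 0.00269) and Cd96 (1.47 ± 0.22, adjusted p = 0.00548) foremost among 4 that were higher and Ceacam1 (−4.84 ± 1.104, adjusted p = 0.0323) lower. Ceacam1, which epithelial cells also make, was at 0 to 3.41 CPM in the 6 innate-like libraries, against 40.5 and 143 CPM in TCRb+CD8a+NK1.1-, 50.9 and 110 CPM in TCRgd+NK1.1- and 2.26 and 4.62 CPM in cNK libraries. Of these, the TCRb+CD8a+NK1.1- and TCRgd+NK1.1- libraries are the ones that hold the epithelial RNA given above, and its part in the Ceacam1 difference was not tested. The median over the 9 genes was −0.46 in NK1.1+ against PD1+ cells and 0.05 in the mean of the 3 lineages, against −0.002 and −0.08 over all genes tested.

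Of 10 ligand genes, 1 passed in TCRb+CD8a+NK1.1+ against TCRb+CD8a+PD1+ cells and the same gene against TCRb+CD8a+PD1-NK1.1- cells: Cd86, a ligand of CTLA-4 and CD28, was at 8.005 and 12.5 CPM in NK1.1+ libraries, against 137 and 160 CPM in PD1+ libraries and 71.9 and 81.4 CPM in PD1-NK1.1- libraries (−3.85 ± 0.37 and −2.90 ± 0.36, edgeR adjusted p = 0.000854 and 0.00384). Of 10 signalling genes, 1 passed in both of these comparisons, Sh2d1a, the adaptor SAP of the 2B4 receptor family (−3.96 ± 0.39 and −2.13 ± 0.36, adjusted p = 0.000885 and 0.0212). It was at 21.4 and 14.2 CPM in NK1.1+ libraries, against 288 and 265 CPM in PD1+ libraries and 68.0 and 87.8 CPM in PD1-NK1.1- libraries. In the mean of the 3 lineages 1 of the 10 passed, where 5.87% of all genes tested did. This was Ptpn6, which encodes the phosphatase SHP-1 (0.78 ± 0.12, adjusted p = 0.00674).

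Of 15 factors of chronically stimulated T cells, 4 passed in TCRb+CD8a+NK1.1+ against TCRb+CD8a+PD1+ cells, all lower, with Eomes (−3.95 ± 0.36, edgeR adjusted p = 0.00074) and Maf (−6.46 ± 0.87, adjusted p = 0.00489) foremost. Eomes, a T-box factor of NK and memory CD8 T cells, was at 8.09 and 8.53 CPM in NK1.1+ libraries, against 124 and 134 CPM in PD1+ libraries and 44.5 and 49.7 CPM in PD1-NK1.1- libraries. Against PD1-NK1.1- cells 4 passed, Tcf7 (−3.83 ± 0.36, adjusted p = 0.00163) and Eomes (−2.50 ± 0.34, adjusted p = 0.00725) foremost among 3 lower and Ikzf2 (2.92 ± 0.44, adjusted p = 0.0118) higher. Tcf7 encodes TCF-1, a factor of naive and stem-like T cells, and was at 46.1 and 37.2 CPM in NK1.1+ libraries, against 147 and 93.7 CPM in PD1+ libraries and 726 and 461 CPM in PD1-NK1.1- libraries. In PD1+ against PD1-NK1.1- cells Bhlhe40 was higher (1.99 ± 0.29, adjusted p = 0.0205) and Tcf7 lower (−2.30 ± 0.34, adjusted p = 0.0212).

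In the mean of the 3 lineages 5 of the 15 factors passed, all lower in innate-like cells, where 5.87% of all genes tested passed. Nr4a1 (−2.07 ± 0.16, edgeR adjusted p = 0.000381) and Nr4a2 (−1.56 ± 0.18, adjusted p = 0.00163) were foremost. Nr4a1 and Nr4a2 encode nuclear receptors that rise quickly after antigen receptor signals and other stimuli. Nr4a1 was at 74.4 and 107 CPM in TCRab+ILTC1 libraries, against 251 and 302 CPM in TCRb+CD8a+NK1.1- libraries, at 122 and 95.6 CPM in TCRgd+ILTC1 libraries, against 351 and 348 CPM in TCRgd+NK1.1- libraries, and at 130 and 96.6 CPM in ILC1l libraries, against 803 and 925 CPM in cNK libraries. It passed in each lineage (adjusted p = 0.0427, 0.0237 and 0.00157). In ILC1l against cNK cells the lower Nr4a1 thus stood beside a higher Pdcd1. Of the 2 relatives of Tox outside the members, Tox4 was at 96.7 to 217 CPM in all 22 libraries and Tox3 at 0 to 3.16 CPM, and neither passed in any pairwise comparison.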

How the data were processed

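Cells were freed from pooled tumours with collagenase and DNase, enriched over Percoll and sorted, and cDNA was made with a SMARTer kit, per the labels' protocols. The authors deposited whole-number read counts per gene; BWA 0.7.5a, Picard and HTSeq and the builds mm9 and NCBIM37 are named per the submitters' processing notes, and no setting for strand is named there. Symbols came from a GRCm38 RefSeq table used for names only, which matched 32897 of 37620 identifiers with 99.02% of all counts, and 3 symbols belonged to several identifiers. Pvrig and Trdc were not analysed here.

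The populations fall into 2 sets by how the labels name them, and each set was scaled (TMM), filtered (filterByExpr) and fitted alone in R 4.3.3 with edgeR 4.0.16 (quasi-likelihood F test, 1 mean per population, all libraries of the set sharing the estimate of spread), with Benjamini-Hochberg adjustment over all genes tested in that comparison at 0.05. The SE of a difference is its size divided by the square root of F. Where a population had no count, a bound from 3 counts over its libraries stands in place of a fold change. Titles spelled ILC1I and ILC1l were taken as 1 population. Libraries of a population may be technical replicates, since tumours were pooled, so p-values measure the spread between these libraries only. No 2 replicate libraries agreed within counting noise. DESeq2 1.42.0, scaling by relative log expression (RLE), no filter, 1 fit over all 22 libraries, a replicate block, leaving out each library and the γδ pair were the alternatives. The newer dispersion method of edgeR, leaving out both TCR-NK1.1+ or both TCRgd+NK1.1- libraries, and the differences of differences were added after seeing the data. The fits were tested on simulated counts. Figures were drawn with Python 3.11.15 and matplotlib 3.10.9.

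The members and the lists of other genes were chosen with earlier results of these data known. All 10 members are named, and from each other list up to 2 genes that passed in each direction of a comparison, by adjusted p. For each member the 3 genes of highest Pearson correlation are named among genes tested in both sets with a mean of at least 10 CPM (log2 CPM with a prior count of 2). Predicted genes, olfactory receptors and receptor segments with symbols of the Tra, Trb, Trg, Trd and Ig kinds were left out. The γ chain constant genes Tcrg-C3 and Tcrg-C4, whose symbols begin otherwise, were not left out. For Tox, 1 of these genes is not reported here.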

Additional observations from a re-analysis of the deposited data

Results flagged for a closer look

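The change in Pdcd1 RNA between innate-like and conventional cells differed between lineages by a test of that difference. The log2 difference of ILC1l from cNK cells exceeded that of TCRab+ILTC1 from TCRb+CD8a+NK1.1- cells by 8.10 ± 0.81 (edgeR adjusted p = 0.00597) and that of TCRgd+ILTC1 from TCRgd+NK1.1- cells by 7.41 ± 0.80 (adjusted p = 0.00429). Pdcd1 was at 13.9 and 55.4 CPM in ILC1l libraries, the second of which held more T-cell RNA, and at 1.09 and 0.977 CPM in cNK libraries.

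Lag3 differed in the same way, by 4.31 ± 0.69 against the αβ lineage (edgeR adjusted p = 0.0449) and by 4.68 ± 0.69 against the γδ lineage (adjusted p = 0.0178), where both cNK libraries were far below the other 10 of their set. Cd200r1 differed by 4.24 ± 0.69 against the γδ lineage (adjusted p = 0.0274), where TCRgd+NK1.1- replicate 2, the library with most myeloid RNA, held 313 CPM of Cd200r1 and replicate 1 held 108 CPM.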

How the results depend on the processing

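Over 130 differences of members, 2330 values were computed under alternatives: 2086 stayed on the same side of the threshold with the same direction or without a call, 92 lost a call, 152 gained one and 0 turned round; 49 changed sign without a call on either side. Without the filter on low counts, members called were 7 in TCRb+CD8a+NK1.1+ and 7 in TCRb+CD8a+PD1+ against TCRb+CD8a+PD1-NK1.1- cells, 5 against TCR-NK1.1+ and 3 against TCRb+CD8a-NK1.1+ cells, 7 in TCRab+ILTC1 and 4 in TCRgd+ILTC1 against their counterparts, 4 in TCRab+ILTC1 against ILC1l cells, and 7, 7 and 1 in the differences of differences. In the same order, the genes called were 747, 397, 1452, 906, 1244, 1786, 344, 738, 1320 and 479. With DESeq2 the members called were 8 and 6 against TCRb+CD8a+PD1-NK1.1- cells, 2 against TCRb+CD8a-NK1.1+ cells, 6 and 5 for the ILTC1 populations, 1 for TCRab+ILTC1 against ILC1l, and 7 and 6 for the differences of differences with ILC1l. In the same order, the genes called were 778, 371, 577, 1189, 1700, 199, 520 and 1217. With 1 fit over all 22 libraries the members called were 1 in NK1.1+ against PD1-NK1.1-, 0 against TCR-NK1.1+, 6 and 4 for the ILTC1 populations, and 4 and 5 for the differences of differences with ILC1l. In the same order, the genes called were 168, 72, 282, 626, 143 and 458. The newer dispersion method gave 6 members in PD1+ against PD1-NK1.1- cells, 6 in TCRab+ILTC1 and 5 in TCRgd+ILTC1 cells. The genes it called there were 140, 688 and 1536, against 71, 88 and 268 in the main fit. RLE scaling gave 1 member against TCR-NK1.1+ cells, among 267 genes, and 2 in TCRgd+ILTC1 cells, among 252 genes. In the TCRgd+ILTC1 comparison 31.3% of the genes called were higher, against 42.2% with TMM. Without both TCRgd+NK1.1- libraries 4 members were called in TCRab+ILTC1 cells and 4 in the first difference of differences. The cause of these moves was not tested.

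Leaving out 1 library gave 2 to 7 members in TCRb+CD8a+NK1.1+ against PD1+ cells, 1 to 5 against PD1-NK1.1-, 0 to 2 against TCR-NK1.1+ and 0 to 1 against TCRb+CD8a-NK1.1+ cells, and 1 to 6 in PD1+ against PD1-NK1.1- cells. It gave 0 to 5 in ILC1l, 0 to 4 in TCRab+ILTC1 and 0 to 4 in TCRgd+ILTC1 cells against their counterparts, 5 to 6 in the mean of 3 lineages, 0 to 4 and 1 to 3 in the first and second differences of differences, and 5 to 9 among the populations of the second set. Counts over all genes moved as well. Given as the count with the lowest and highest over the other settings, apart from leaving out 1 library, in parentheses, they were 332 (221 to 838) in TCRb+CD8a+NK1.1+ against PD1+, 280 (168 to 778) against PD1-NK1.1-, 242 (72 to 1452) against TCR-NK1.1+ and 53 (17 to 906) against TCRb+CD8a-NK1.1+ cells, and 71 (45 to 397) in PD1+ against PD1-NK1.1- cells. They were 171 (167 to 829) in ILC1l, 88 (83 to 1244) in TCRab+ILTC1 and 268 (219 to 1786) in TCRgd+ILTC1 cells against their counterparts, 0 (0 to 344) in TCRab+ILTC1 against ILC1l cells and 987 (437 to 2252) in the mean of 3 lineages. The 3 differences of differences had 43 (50 to 738), 171 (154 to 1320) and 9 (6 to 479), and the tests among all populations 959 (623 to 3099) in the first set and 801 (646 to 3675) in the second. Leaving out 1 library moved the counts over all genes, and so the shares of all genes given beside the members, by far more than 1.5 times. They ran over 116 to 520 in TCRb+CD8a+NK1.1+ against PD1+, 46 to 467 against PD1-NK1.1-, 3 to 1021 against TCR-NK1.1+ and 2 to 667 against TCRb+CD8a-NK1.1+ cells, and 14 to 184 in PD1+ against PD1-NK1.1- cells. In the second set they ran over 34 to 352 in ILC1l, 11 to 840 in TCRab+ILTC1 and 7 to 804 in TCRgd+ILTC1 cells against their counterparts, 0 to 324 in TCRab+ILTC1 against ILC1l cells, 448 to 1836 in the mean of 3 lineages, and 4 to 418, 27 to 506 and 0 to 291 in the differences of differences. Among all populations they ran over 615 to 2289 in the first set and 431 to 1639 in the second. The labels do not say what a replicate number shares, and with 2 numbers the libraries were not taken as paired. Deviations of same-numbered libraries correlated at 0.06 to 0.236 in the first set, with 0.206, 0.218 and 0.236 among the 3 TCRb+CD8a+ populations, and at −0.048 to 0.125 in the second. A fit with a replicate block gained the calls of Lag3 in TCRb+CD8a+NK1.1+ (edgeR adjusted p = 0.00535) and of Ctla4 in TCRb+CD8a+PD1+ (0.024) against PD1-NK1.1- cells, of Cd160 in TCRab+ILTC1 cells (0.0493) and of Cd101 in the second difference of differences (0.0425). It lost those of Pdcd1 in TCRab+ILTC1 cells (0.0526) and of Lag3 in the first difference of differences (0.0645), where 1 member was left. With the block the genes called were 498, 421, 125 and 387 in TCRb+CD8a+NK1.1+ against PD1+, in NK1.1+ and in PD1+ against PD1-NK1.1-, and in NK1.1+ against TCR-NK1.1+ cells. Several populations held few counts of Tox2, Havcr2 or Btla, and their replicates could lie far apart: TCRab+ILTC1 libraries held 153 and 0 counts of Havcr2 and 207 and 0 of Btla. The part of depth in these gaps was not tested.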
